A study of Mus musculus with 8 samples.

Results

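The BCL2 family apoptosis regulators examined here are the genes Bcl2, Bcl2l1, Bcl2l2, Mcl1, Bcl2a1a, Bcl2a1d, Bcl2l11, Pmaip1, Bid and Bak1, taken as every row of the deposited probe table whose gene symbol was in that list. The table held 19 such probes of 25697, for 9 of the 10 genes. No row carried the symbol Bcl2a1a. All 19 probes passed the filter on detection, which kept 13868 probes. The 8 arrays, 2 per group, measured RNA of bone marrow cells from female mice of 8 weeks, labelled C57bl/6J and either WT or iNOS-/- and grown for 7 days in 10 ng/ml GM-CSF. The iNOS-/- strain was B6.129P2-Nos2tm1Lau/J, a targeted germline allele, so the cultures carried it during growth as well as during stimulation. The groups were WT CON and iNOS-/- CON, which stayed unstimulated, and WT M1 and iNOS-/- M1, which received 200 ng/ml LPS with 10 ng/ml IFN-γ for 6 h. Whether a group's 2 arrays used RNA of separate mice is stated neither in the labels nor in the methods, so p-values measure only the spread between arrays, which may be technical.

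The BCL2 family decides whether mitochondria release the proteins that start the caspase cascade. BCL2, BCL-xL (from Bcl2l1), BCL-w (from Bcl2l2), MCL1 and A1 (from the Bcl2a1 genes) hold the effectors BAK and BAX in check. The BH3-only proteins BIM (from Bcl2l11), NOXA (from Pmaip1) and BID bind the protective members or act on the effectors. In myeloid cells, A1 and BCL-xL are known as targets of NF-κB, the factor that LPS activates, and MCL1 is a short-lived protein with high turnover of its mRNA.

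All values are log2 of the scaled bead intensity of a probe. Intensities of different probes have different offsets, so a probe is compared only with itself between groups. A probe was called where the adjusted p-value from limma was under 0.05. The number of arrays limits the precision of each value, and in cultures of this kind fewer cells of a type and less RNA per cell cannot be told apart. Detected probes numbered 11833 to 12673 per array, and the median gap between the 2 arrays of a group was 0.16 to 0.19.

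The targeted gene Nos2 was not detected on any unstimulated array and was detected on all M1 arrays. Its log2 values were 7.52 and 7.10 on the WT M1 arrays and 7.59 and 7.76 on the iNOS-/- M1 arrays. The difference of 0.37 (SE 0.32, adjusted p = 0.390) was not called. The probe starts at base 3546 of the transcript, and the sources used here do not give its place relative to the altered part, so Nos2 checks the stimulation but not the genotype. Every genotype below is that of the label.

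The A1 probes are shown first because they limit what can be said of that gene. The mouse has several A1 copies on chromosome 9, among them Bcl2a1d at chr9:88723288-88731850, Bcl2a1a at chr9:88956920-88962416 and Bcl2a1c at chr9:114330135-114330578 (GRCm38.p6, RefSeq). The array had a probe for Bcl2a1d and another for Bcl2a1c. They overlapped over 38 bases of the same stretch with 3 differing bases, which are in capitals. Neither probe was compared with the transcripts of the other copies, Bcl2a1a included. Which copies each probe reads was therefore not tested, and the signal is not assigned to a single copy.
Bcl2a1d probe: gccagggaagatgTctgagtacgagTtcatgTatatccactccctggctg
Bcl2a1c probe: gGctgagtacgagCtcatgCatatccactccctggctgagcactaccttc

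The A1 genes also share the sequence before their start. The 90 bases before the annotated start of Bcl2a1d, on the minus strand, were set against the best ungapped place in the windows of 3 other copies. Bcl2a1b differed at 1 base, Bcl2a1a at 2 bases and Bcl2a1c at 6 bases. The stretches are chr9:88731851-88731940 for Bcl2a1d, chr9:88956830-88956919 for Bcl2a1a, chr9:89199139-89199228 for Bcl2a1b and chr9:114329935-114330024 for Bcl2a1c, the last 3 on the plus strand. They are printed because the A1 signal had the largest genotype difference after stimulation among members with a single probe, and capitals mark bases that differ from Bcl2a1d.
Bcl2a1d: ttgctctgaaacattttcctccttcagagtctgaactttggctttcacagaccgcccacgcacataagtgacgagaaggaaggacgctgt
Bcl2a1a: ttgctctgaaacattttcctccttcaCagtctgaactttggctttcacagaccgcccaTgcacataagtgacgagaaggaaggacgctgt
Bcl2a1b: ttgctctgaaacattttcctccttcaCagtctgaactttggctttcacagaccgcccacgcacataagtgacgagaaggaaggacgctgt
Bcl2a1c: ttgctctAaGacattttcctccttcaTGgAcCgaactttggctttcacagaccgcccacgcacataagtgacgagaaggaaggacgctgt

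Promoter windows of RefSeq, 250 bases before to 50 after a start, were available for 9 of the 10 genes (12 windows). A search on both strands covered 3 motifs of factors downstream of LPS and IFN-γ, of which only the first matched, so no matches overlapped. The NF-κB type GGGNNTTTCC was present in 1.63% of 32851 windows, and among the genes here in 1 of 3 Bcl2l1 windows and in the Mcl1 window. The GAS type TTCNNNGAA, in 8.3% of windows, and the ISRE type GAAANNGAAA, in 3.44%, matched none of the 12. The matches, both on the opposite strand, are shown in capitals at chr2:152830901-152830960 (minus strand) and chr3:95658668-95658720 (plus strand). A match is a run of letters, and none says only that the letters are not in that window.
Bcl2l1: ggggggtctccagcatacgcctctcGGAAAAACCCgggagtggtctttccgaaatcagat
Mcl1: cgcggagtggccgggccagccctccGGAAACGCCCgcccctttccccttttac

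Whether M1 stimulation moved these genes was asked within each genotype. In WT cells, Bcl2l1, the A1 signal, Pmaip1, Bak1, a probe of Bcl2l11 and a probe of Bcl2 rose, and Mcl1 fell. In iNOS-/- cells, Bcl2l1, the A1 signal, Bcl2l11 and Bcl2l2 rose on most of their probes, Pmaip1 rose on 1 of 2 probes and no probe was called lower by limma (0 also had an unadjusted p under 0.05 with a lower level). Of the 19 probes, 8 were called higher and 1 lower in WT (9 calls, where 35.1% of all tested probes were called, 20.1% higher and 14.9% lower). In iNOS-/- cells 10 were called higher and 0 lower, against 49.9% of all probes called, 26.4% higher and 23.6% lower. The median difference of the 19 probes was 0.93 in WT and 0.55 in iNOS-/- cells, against 0.07 and 0.05 over all probes. Genes with several probes weigh more in that median. With only the brightest probe of each of the 9 genes, the median was 0.05 in WT, with 4 called higher and 1 lower. In iNOS-/- cells it was 0.14, with 4 called higher and 0 lower. Among all called probes the share called higher was 57.5% in WT and 52.8% in iNOS-/- cells, and it was 44.4% and 43.3% under neqc and 47.4% and 41.9% under quantile normalization. Quantile normalization also moved the median of all probes in iNOS-/- cells to -0.13, and 10 member probes were called higher and 1, that of Mcl1, lower there.

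Whether the genotypes differed was asked before and after stimulation. Before it, Pmaip1, Bak1 and the A1 signal were higher in iNOS-/- CON than in WT CON, and Mcl1, 1 of 3 Bcl2l2 probes and the 2 Bcl2l11 probes nearest the 3′ end were lower. After it, the A1 signal, 2 of 3 Bcl2l1 probes and 2 of 4 Bcl2l11 probes were higher in iNOS-/- M1 than in WT M1, and Bak1 was lower. Before stimulation 4 of the 19 probes were called higher and 4 lower, against 32.1% of all probes called, 16.1% higher and 16.1% lower. After it 5 were called higher and 1 lower, against 48.5% of all probes called, 24.5% higher and 23.9% lower. The median difference of the 19 probes was 0.08 before and 0.31 after stimulation, against -0.02 and 0.01 over all probes. With only the brightest probe of each gene, the median was 0.08 before and 0.12 after it. Without WT CON replicate 1 or without iNOS-/- CON replicate 2, the calls before stimulation numbered 5. Without WT M1 replicate 2 or without iNOS-/- M1 replicate 2, those after it numbered 3.

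The difference of the responses, that in iNOS-/- cells minus that in WT cells, was tested in the same fit. It was called higher for 8 member probes and lower for 3, against 42.1% of all probes called, 21.0% higher and 21.1% lower. The 3 lower calls were Bak1 and both Pmaip1 probes. The 8 higher calls were A1, Mcl1, 1 Bcl2l1 probe, 2 Bcl2l2 probes and 3 Bcl2l11 probes. The median over the 19 probes was 0.59, against 0.01 over all probes, and 0.50 with only the brightest probe of each gene. The 5 comparisons share arrays and are not independent of each other.

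**Figure D1:**
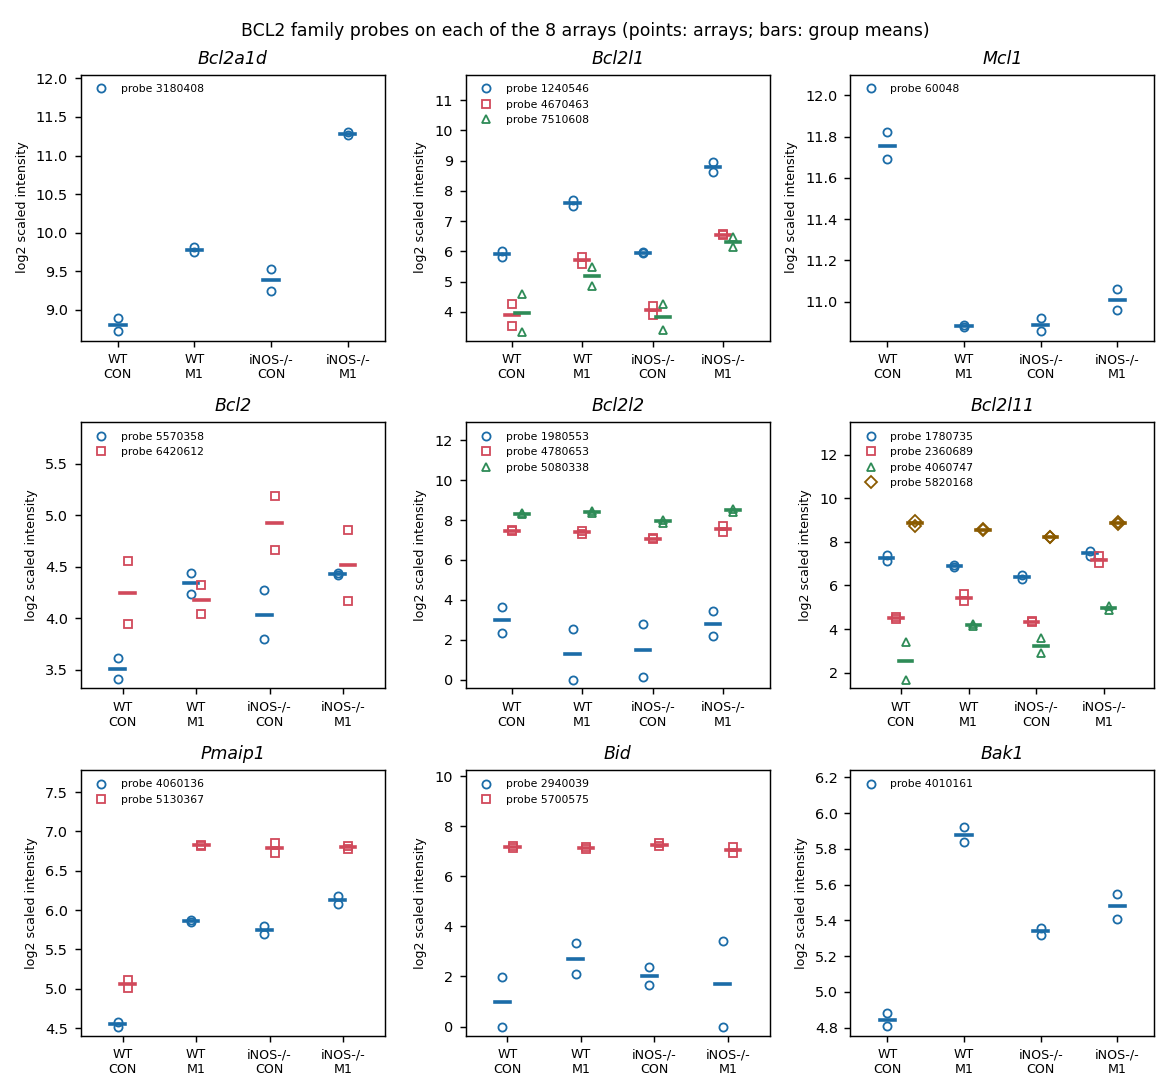
Log2 scaled intensity (vertical axis) of all 19 probes of the 9 genes on each array, by group on the horizontal axis; each symbol shape is a probe, each point an array and each short bar a group mean of 2 arrays. The A1 signal peaked on the iNOS-/- M1 arrays (11.30 and 11.27), while Mcl1 stood highest and Pmaip1 lowest on the WT CON arrays.

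A1 is the protective family member most restricted to blood cells. The Bcl2a1d probe read 8.73 and 8.89 on the WT CON arrays, 9.25 and 9.53 on iNOS-/- CON, 9.81 and 9.75 on WT M1, and 11.30 and 11.27 on iNOS-/- M1. The order was WT CON, iNOS-/- CON, WT M1 and iNOS-/- M1, with no overlap between any of the groups. The step between iNOS-/- CON and WT M1 was not tested. Stimulation raised the signal by 0.97 in WT (SE 0.12, adjusted p = 0.00382) and by 1.90 in iNOS-/- cells (SE 0.12, adjusted p = 2.14e-04), a 3.73-fold rise. The iNOS-/- M1 arrays stood 1.50 above WT M1 (SE 0.12, adjusted p = 6.19e-04), or 2.84-fold. Before stimulation the genotypes differed by 0.58 (adjusted p = 0.0209). That call was lost without either WT CON array or without iNOS-/- CON replicate 2 (0.44 to 0.66), and in the fit on the 4 CON arrays alone (adjusted p = 0.0758). The 2 responses were 0.92 apart (SE 0.18, adjusted p = 0.0110), but 0.35 apart under neqc and quantile normalization, where the difference was not called (adjusted p = 0.101 and 0.189).

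The Bcl2a1c probe, not a member but of the same stretch, read 8.99 and 8.91 on WT CON, 10.47 and 10.56 on WT M1, 10.02 and 10.01 on iNOS-/- CON, and 11.68 and 11.63 on iNOS-/- M1. The groups stood in the same order as on the Bcl2a1d probe. It rose by 1.57 in WT and 1.64 in iNOS-/- cells, with adjusted p of 2.25e-04 and 9.93e-05, and the difference of the responses was 0.07 (95% interval from -0.22 to 0.37, adjusted p = 0.643). The genotype difference was 1.07 before and 1.14 after stimulation, both called.

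Bcl2l1 encodes BCL-xL, a protective member that holds BAK and BAX inactive. Of its 3 probes, the pair printed here is shown because both lie inside the coding part of the transcript, at bases 571 and 690.
Bcl2l1 probe 7510608: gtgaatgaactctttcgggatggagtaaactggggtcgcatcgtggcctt
Bcl2l1 probe 4670463: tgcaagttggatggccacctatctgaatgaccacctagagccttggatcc

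The probe 1240546 read 5.82 and 6.02 on WT CON, 7.69 and 7.51 on WT M1, 5.97 and 5.94 on iNOS-/- CON, and 8.96 and 8.62 on iNOS-/- M1. The unstimulated groups overlapped, both M1 groups lay above them, and iNOS-/- M1 lay above WT M1. It rose by 1.68 in WT (SE 0.15, adjusted p = 0.00130) and by 2.83 in iNOS-/- cells (SE 0.15, adjusted p = 1.21e-04), a 7.12-fold rise. The responses differed by 1.15 (SE 0.22, adjusted p = 0.0105), and the M1 groups by 1.19 (adjusted p = 0.00241).

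The coding-part probes of Bcl2l1 gave the same directions with wider errors. Probe 4670463 read 3.53 and 4.25 on WT CON, 5.81 and 5.59 on WT M1, 4.20 and 3.91 on iNOS-/- CON, and 6.54 and 6.56 on iNOS-/- M1. It rose by 1.81 in WT (adjusted p = 0.00558) and by 2.49 in iNOS-/- cells (adjusted p = 9.71e-04). Its genotype difference after stimulation, 0.85 (adjusted p = 0.0431), was lost without any single M1 or iNOS-/- CON array (0.74 to 0.96) and without the filter on detection (adjusted p = 0.0964). Probe 7510608 rose by 2.48 in iNOS-/- cells (SE 0.52, adjusted p = 0.0117), a call lost without iNOS-/- CON replicate 1 (2.07) or iNOS-/- M1 replicate 1 (2.32). In WT its value was 1.21 (SE 0.52, adjusted p = 0.132). The difference of the responses was 0.69 on 4670463 (95% interval from -0.24 to 1.62) and 1.27 on 7510608 (95% interval from -0.58 to 3.13), neither called. Before stimulation the genotype difference lay between -0.13 and 0.17 on the 3 probes, with no call.

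**Figure D2:**
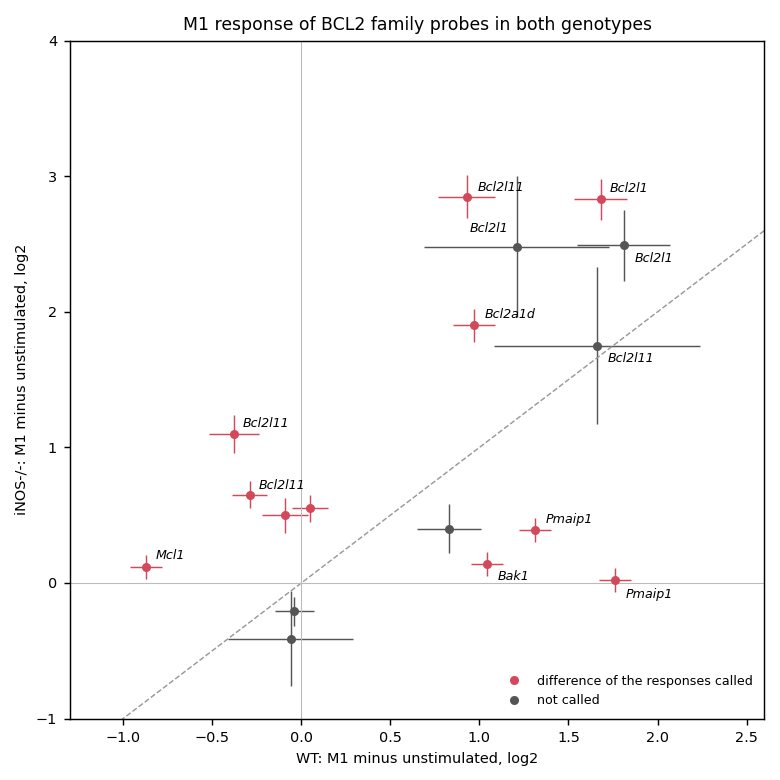
Log2 difference of M1 minus unstimulated in WT (horizontal axis) against the same in iNOS-/- cells (vertical axis) for the 17 member probes detected on at least 7 arrays; bars are standard errors, the dashed line marks equal responses and red marks a called difference of the responses. Bcl2l11 and Bcl2l1 probes lie above the line at up to 2.85, and Pmaip1 and Bak1 lie below it.

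Mcl1, the short-lived protective member, went the other way in WT cells. Its probe read 11.69 and 11.82 on WT CON, 10.89 and 10.88 on WT M1, 10.86 and 10.92 on iNOS-/- CON, and 11.06 and 10.96 on iNOS-/- M1. The WT CON arrays were highest, the WT M1 arrays lay within the range of iNOS-/- CON, and iNOS-/- M1 lay just above both. Stimulation lowered it by 0.87 in WT (log2 difference -0.87, SE 0.09, adjusted p = 0.00193), or 1.82-fold. The genotypes differed by the same -0.87 before stimulation (SE 0.09, adjusted p = 0.00199). In iNOS-/- cells the response was 0.12 (95% interval from -0.10 to 0.35), which became a called fall of -0.50 under both neqc (adjusted p = 0.00132) and quantile normalization (adjusted p = 0.00746). The genotype difference after stimulation was likewise 0.12 (adjusted p = 0.298), but -0.36 under neqc and -0.37 under quantile normalization, both called. The difference of the responses, 0.99 (SE 0.13, adjusted p = 0.00311), was 0.38 under both, called under neqc (adjusted p = 0.0431) and not under quantile normalization (adjusted p = 0.0693).

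Bcl2, the founding protective member, had 1 call. Probe 5570358 read 3.61 and 3.41 on WT CON, 4.44 and 4.24 on WT M1, 3.80 and 4.27 on iNOS-/- CON, and 4.44 and 4.42 on iNOS-/- M1. WT CON was lowest, and the other groups lay between 3.80 and 4.44. The WT rise of 0.83 (SE 0.18, adjusted p = 0.0217) was lost under neqc (0.24), quantile normalization (0.52), a floor of 16 (0.34) and an intensity trend, and without any single WT array (0.73 to 0.93). Probe 6420612 ranged from 3.94 to 5.19 with overlapping M1 groups and no call.

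Bcl2l2 encodes BCL-w, a close relative of BCL2. Probe 5080338 read 8.30 and 8.35 on WT CON, 8.33 and 8.43 on WT M1, 8.00 and 7.86 on iNOS-/- CON, and 8.42 and 8.54 on iNOS-/- M1. The iNOS-/- CON arrays lay below the other 6. The gap to WT CON was -0.40 (SE 0.10, adjusted p = 0.0323) and the iNOS-/- response 0.55 (SE 0.10, adjusted p = 0.00681), while WT moved by 0.05 (95% interval from -0.20 to 0.30). Probe 4780653 had the same low group, at 7.08 and 7.05, with an iNOS-/- response of 0.50 (adjusted p = 0.0240). Between the genotypes the responses differed by 0.50 (adjusted p = 0.0373) and 0.59 (adjusted p = 0.0496). Both of these calls sat near the threshold and were lost in 7 of the 8 fits with an array left out, exceptions being iNOS-/- M1 replicate 1 for the first and replicate 2 for the second, with values of 0.43 to 0.57 and 0.43 to 0.65. The first was also lost under neqc (0.36) and quantile normalization (0.38). The iNOS-/- call of probe 4780653 was lost without either iNOS-/- CON array or iNOS-/- M1 replicate 1 (0.34 to 0.51). The call on the unstimulated gap was lost without any single CON or WT M1 array (-0.47 to -0.33). The third probe, 1980553, was detected on 3 arrays and had no call.

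BIM, from Bcl2l11, is a BH3-only protein that binds all protective members. Its 4 probes did not move alike. The 2 that read the coding part of long isoforms are printed, since they had the larger log2 differences in iNOS-/- cells.
Bcl2l11 probe 4060747: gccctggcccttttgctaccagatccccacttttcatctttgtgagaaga
Bcl2l11 probe 2360689: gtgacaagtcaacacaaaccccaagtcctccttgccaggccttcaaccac

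Probe 2360689, at base 545, read 4.53 and 4.46 on WT CON, 5.27 and 5.59 on WT M1, 4.37 and 4.31 on iNOS-/- CON, and 7.03 and 7.35 on iNOS-/- M1. Both M1 groups lay above the unstimulated ones, and iNOS-/- M1 lay furthest. It rose by 0.93 in WT (SE 0.16, adjusted p = 0.00934), a call lost without WT CON replicate 2 (0.90, adjusted p = 0.0508), and by 2.85 in iNOS-/- cells (SE 0.16, adjusted p = 1.32e-04), or 7.21-fold. The responses differed by 1.92 (SE 0.22, adjusted p = 0.00241) and the M1 groups by 1.76 (SE 0.16, adjusted p = 7.68e-04). Probe 4060747, at base 422, had log2 differences of 1.66 in WT and 1.75 in iNOS-/- cells with an SE of 0.58, and neither was called (adjusted p = 0.0794 and 0.0544).

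The probes toward the 3′ end of Bcl2l11 started at bases 3727 and 4582. Probe 1780735 read 7.13 and 7.41 on WT CON, 6.86 and 6.92 on WT M1, 6.28 and 6.47 on iNOS-/- CON, and 7.37 and 7.57 on iNOS-/- M1. Here WT CON lay near iNOS-/- M1 and iNOS-/- CON was lowest. The unstimulated genotype gap was -0.90 (SE 0.14, adjusted p = 0.00821) and the iNOS-/- response 1.10 (SE 0.14, adjusted p = 0.00222). The WT value was -0.38 (adjusted p = 0.0978), called lower under neqc (-0.42, adjusted p = 0.0125) and quantile normalization (-0.47, adjusted p = 0.0445). After stimulation iNOS-/- lay 0.58 above WT (adjusted p = 0.0230), a call lost without either WT M1 array or iNOS-/- M1 replicate 2 (0.47 to 0.61).

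Probe 5820168 read 8.96 and 8.74 on WT CON, 8.54 and 8.58 on WT M1, 8.22 and 8.22 on iNOS-/- CON, and 8.83 and 8.91 on iNOS-/- M1. Its order was that of probe 1780735 with smaller steps. The unstimulated gap was -0.63 (adjusted p = 0.00892) and the iNOS-/- response 0.65 (adjusted p = 0.00446). The responses differed by 1.48 on 1780735 (SE 0.20) and 0.93 on 5820168 (SE 0.15), both called. Thus 3 of 4 probes had a larger response in iNOS-/- cells, whereas in WT the called rise at base 545 stood beside values of -0.38 and -0.29 near the 3′ end.

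Pmaip1 encodes NOXA, whose main partner is MCL1. Probe 5130367 read 5.01 and 5.11 on WT CON, 6.83 and 6.82 on WT M1, 6.85 and 6.72 on iNOS-/- CON, and 6.78 and 6.82 on iNOS-/- M1. Only WT CON stood apart, below the other 6 arrays. Its WT response was 1.76 (SE 0.09, adjusted p = 2.00e-04), or 3.40-fold, and the unstimulated genotype gap 1.72 (SE 0.09, adjusted p = 2.46e-04), or 3.30-fold. The iNOS-/- response was 0.02 (95% interval from -0.21 to 0.24), and the responses differed by -1.75 (SE 0.13, adjusted p = 6.66e-04).

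Probe 4060136 read 4.52 and 4.58 on WT CON, 5.88 and 5.85 on WT M1, 5.80 and 5.69 on iNOS-/- CON, and 6.18 and 6.08 on iNOS-/- M1. It shared the low WT CON group but placed iNOS-/- M1 above the rest. The WT response was 1.31 and the unstimulated gap 1.20, both called. The iNOS-/- response of 0.39 (SE 0.09, adjusted p = 0.0164) was lost without iNOS-/- CON replicate 2 (0.33) or iNOS-/- M1 replicate 1 (0.34), with an intensity trend (adjusted p = 0.0715) and with a fit on those 4 arrays alone (adjusted p = 0.0658). The difference of the responses was -0.93 (SE 0.13, adjusted p = 0.00379).

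Pmaip1 and Mcl1 thus gave opposite values around the same group. On the WT CON arrays Mcl1 was highest and both Pmaip1 probes lowest, and on the other 6 arrays Mcl1 stayed between 10.86 and 11.06 and Pmaip1 probe 5130367 between 6.72 and 6.85. The lower Mcl1 and higher Pmaip1 in WT M1 and in iNOS-/- CON were called under neqc and quantile normalization too. Under both, however, Mcl1 did not stay level over the other 6 arrays, with a called iNOS-/- response of -0.50 and called M1 genotype differences of -0.36 and -0.37.

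BID links death receptors to mitochondria. Probe 5700575 read 7.21 and 7.15 on WT CON, 7.09 and 7.19 on WT M1, 7.21 and 7.32 on iNOS-/- CON, and 6.95 and 7.17 on iNOS-/- M1. All arrays lay between 6.95 and 7.32 and no comparison was called. The largest difference was the iNOS-/- response, -0.21 (95% interval from -0.48 to 0.07). The other Bid probe was detected on 3 arrays and had no call.

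BAK, from Bak1, is the effector that MCL1 and BCL-xL hold back. Its probe read 4.81 and 4.88 on WT CON, 5.84 and 5.92 on WT M1, 5.36 and 5.32 on iNOS-/- CON, and 5.55 and 5.41 on iNOS-/- M1. The order was WT CON, iNOS-/- CON, iNOS-/- M1 and WT M1. It rose by 1.04 in WT (SE 0.09, adjusted p = 0.00117), while the iNOS-/- value was 0.14 (95% interval from -0.09 to 0.37). The responses differed by -0.90 (SE 0.13, adjusted p = 0.00455). The unstimulated gap of 0.50 (adjusted p = 0.0128) was lost without WT CON replicate 1 or either iNOS-/- CON array (0.46 to 0.51). The lower level in iNOS-/- M1 than in WT M1, -0.40 (SE 0.09, adjusted p = 0.0169), was not called under neqc (-0.21), quantile normalization (-0.28) or an intensity trend, in the fit on those 4 arrays, or without WT M1 replicate 2 (-0.36) or iNOS-/- M1 replicate 2 (-0.33).

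**Figure D3:**
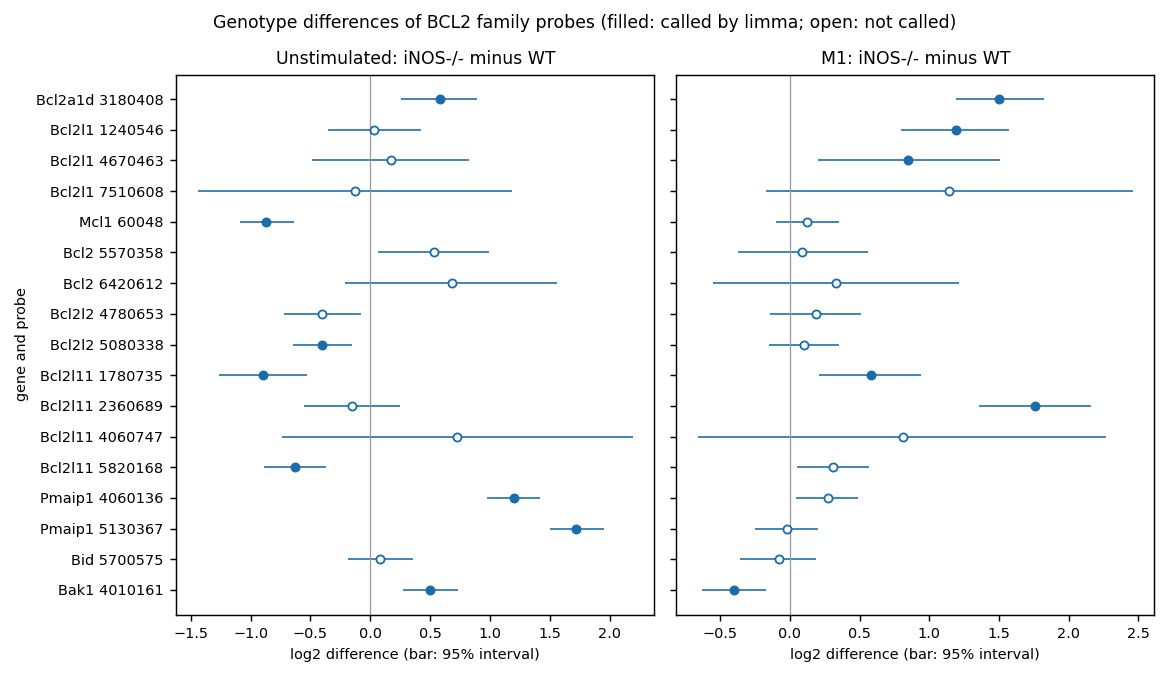
Log2 difference of iNOS-/- minus WT (horizontal axis) before stimulation (left) and after it (right) for the 17 member probes detected on at least 7 arrays (vertical axis); bars are 95% intervals and filled points were called. Pmaip1 leads the unstimulated panel at 1.72 and Bcl2l11 probe 2360689 the M1 panel at 1.76.

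In a fit on the 4 arrays labelled WT alone, 9 member probes were called on stimulation, 8 higher and 1 lower, where 27.1% of all probes were called. In a fit on the 4 arrays labelled iNOS-/- alone, 9 were called, all higher, where 43.7% of all probes were called.

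Other BCL2 family genes were examined from a fixed list of 16, of which 10 were tested. In WT 3 were called higher and 3 lower on stimulation, where 35.1% of all probes were called, and in iNOS-/- cells 2 higher and 4 lower, where 49.9% were. The median differences were -0.01 and -0.45, against 0.07 and 0.05 over all probes. Bmf, a BH3-only gene, read 4.97 and 4.72 on WT CON, 5.77 and 5.93 on WT M1, 6.15 and 6.03 on iNOS-/- CON, and 3.50 and 2.62 on iNOS-/- M1. It fell by 3.03 in iNOS-/- cells (log2 difference -3.03, SE 0.30, adjusted p = 7.99e-04), the opposite direction to Bcl2l11. Its probe was detected on 1 of the 2 iNOS-/- M1 arrays, with scaled intensities of 11.4 and 6.14 there. The size of the fall thus rests on values near background. Bcl2l14 was undetected on all unstimulated arrays and read 7.15 and 6.87 on iNOS-/- M1, at least 24.9-fold higher than on iNOS-/- CON (adjusted p = 1.77e-05). Bnip3l, a mitophagy receptor, fell in both genotypes, by 1.67 in WT and by 0.96 in iNOS-/- cells. Between the M1 groups 2 were called higher and 3 lower (median -0.15), against 48.5% of all probes called, and between the unstimulated groups 3 higher and 1 lower (median 0.04), against 32.1%. Bax, the other effector, had no call in any comparison and was picked out after its values were seen. Its log2 differences between groups were -0.26 to 0.19. Its difference of the responses was -0.36 (SE 0.13, adjusted p = 0.0741 from limma).

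Of 19 genes on a caspase cascade list, which also held inhibitors of apoptosis, 15 were tested. In WT 7 were called higher and 2 lower on stimulation (median 0.32), and in iNOS-/- cells 6 higher and 5 lower (median 0.47). Over all probes 35.1% and 49.9% were called, with medians of 0.07 and 0.05. Between the M1 groups 7 were called higher and 5 lower (median 0.56), and between the unstimulated groups 6 higher and 1 lower (median 0.18). Over all probes 48.5% and 32.1% were called there, with medians of 0.01 and -0.02. Casp6 read 7.87 and 7.84 on WT M1 and 5.90 and 6.25 on iNOS-/- M1, a difference of -1.78 (SE 0.14, adjusted p = 5.75e-04). Casp9, the initiator on the mitochondrial route, was 1.47 lower on iNOS-/- M1 than on WT M1 (log2 difference -1.47, adjusted p = 4.77e-04). Birc2 and Birc3, inhibitors of apoptosis, were 1.59 and 1.68 higher there. Birc5, the survivin gene of dividing cells, rose by 2.13 in WT and fell by 1.78 in iNOS-/- cells.

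**Figure D4:**
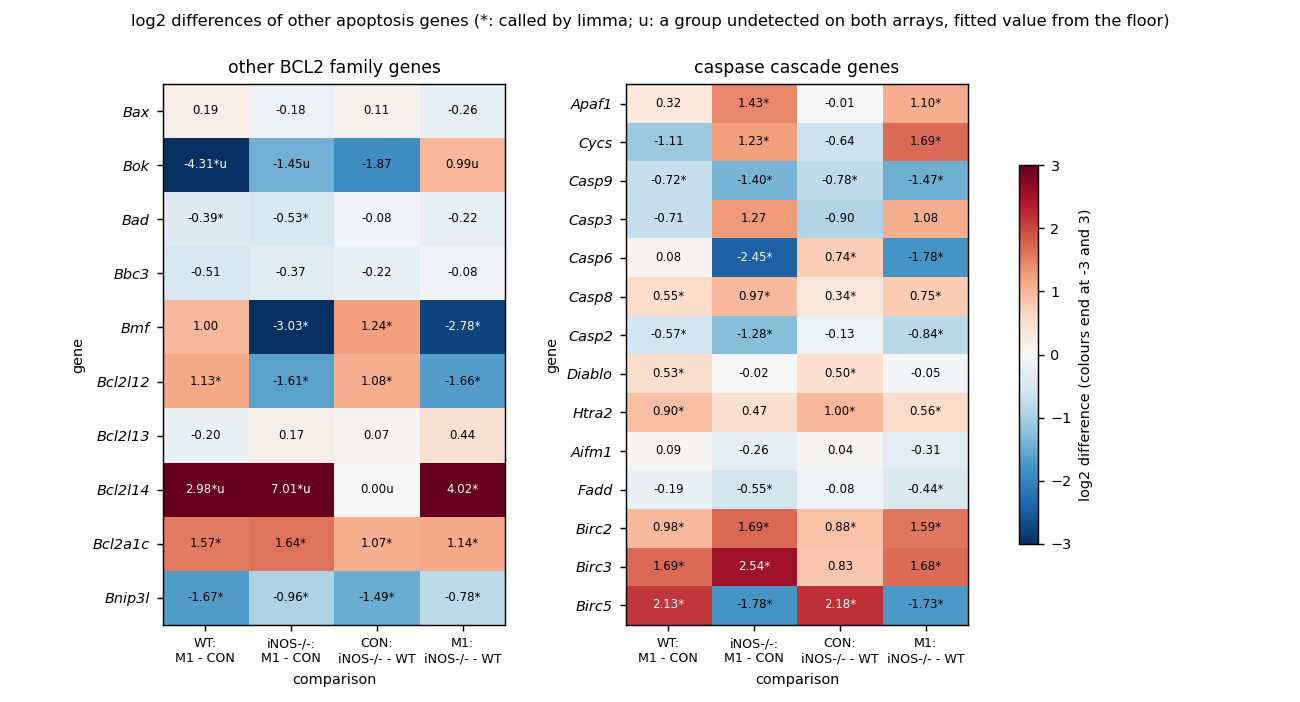
Log2 differences (colour and printed value) of the 10 tested genes of the other BCL2 family list (left) and 14 of the 15 tested caspase cascade genes (right), with genes on the vertical axis and 4 comparisons on the horizontal axis; a star marks a call and u a comparison with a group undetected on both arrays. Bmf (-3.03, detected on 1 of 2 iNOS-/- M1 arrays) and Casp6 (-2.45) fell and Birc3 (2.54) rose on stimulation in iNOS-/- cells.

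The genes most like each member over the 8 arrays were searched among 9671 probes detected on all arrays, as a description. Casp8 and Fchsd2 followed the Bcl2a1d probe with Pearson r of 0.998. Acsl1 and Clecsf9 followed Bcl2l1 with r of 0.996, Gdpd1 followed Mcl1 with 0.994, and Lpcat3 followed Bak1 with 0.990. Aqp9 (0.998) and H2-DMb2 (0.997) followed Pmaip1 probe 5130367, and Wbp2 (0.981) the Bcl2l11 probe 5820168. Casp8 itself, the caspase that cleaves BID, read 8.85 and 8.88 on WT CON, 9.43 and 9.41 on WT M1, 9.16 and 9.25 on iNOS-/- CON, and 10.16 and 10.18 on iNOS-/- M1. With 4 groups of 2 arrays, such correlations mostly set 4 group means side by side.

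Marker lists of cell types differed between the groups. Of 10 macrophage marker symbols on the array, at least 9 were detected on both arrays of each group. Between the M1 groups 3 of them were called higher in iNOS-/- and 5 lower, where 48.5% of all probes were called. The higher ones were Cd14 (1.49), Mertk (1.04) and Emr1 (0.46), and Csf1r (-1.24), Cd68 (-0.88) and Fcgr1 (-0.99) were among the lower. Their summed scaled intensity, over all 10, was 42900 to 47300 on WT M1 and 48000 to 48100 on iNOS-/- M1. On the unstimulated arrays it was 41500 to 42100 for WT and 31500 to 33400 for iNOS-/-. Lyz2 alone read 21600 on iNOS-/- M1 replicate 1. Lyzs, an older symbol of the same gene and also counted among the 10, read 10400 there. The summed scaled intensity of 9 dendritic cell markers was 998 to 1020 on WT CON, 17800 to 18500 on WT M1, 14600 to 15500 on iNOS-/- CON and 41000 to 42800 on iNOS-/- M1, with Flt3 undetected throughout. A few bright probes carried that sum, since on iNOS-/- M1 replicate 1 Ccl17 read 20200 and Il4i1 14000. Of 8 tested, 7 were called higher and 0 lower in iNOS-/- CON than in WT CON (median 3.68). Between the M1 groups 6 were called higher in iNOS-/- and 0 lower (median 1.50). Over all probes 32.1% and 48.5% were called in these comparisons. Itgax was -0.39 against WT M1 (log2, adjusted p = 0.0888). The WT CON arrays were lowest for the dendritic cell sum, as they were for Pmaip1. Itgax had mean log2 values of 7.64 on WT CON and 7.63 on iNOS-/- M1. Whether the marker values bear on Pmaip1 was not tested. For 10 granulocyte markers the sum was 1170 to 1210, 1450 to 1550, 1740 to 1800 and 4120 to 4250 in the same order, with Mpo and Retnlg undetected in every group. The sum was highest on iNOS-/- M1, as was the A1 signal. Most of it was S100a8 (3030 on iNOS-/- M1 replicate 1). Of 7 tested, 3 were called higher and 0 lower in iNOS-/- M1 than in WT M1, against 48.5% of all probes called. On stimulation in iNOS-/- cells 5 were called higher and 0 lower, where 49.9% of all probes were called. Mmp8 was highest on WT CON at 190 and 195. For 11 dividing cell markers the sum was 2780 to 2880, 4850 to 5140, 5550 to 5600 and 2880 to 3180, with Ccnb2 and Bub1 undetected in every group. A single bright probe gave most of it on WT CON and iNOS-/- M1. Of 9 tested, 9 were called higher in iNOS-/- CON than in WT CON, against 32.1% of all probes called. Between the M1 groups 1 was called higher in iNOS-/- and 7 lower, against 48.5%. None of 5 B and T cell markers was detected on both arrays of any group. The sum of 3 mast cell markers was -3.23 to 5.13 on WT CON and 126 to 132 on iNOS-/- M1, with Cma1 and Ms4a2 undetected throughout. The part of these differences in the member results was not tested.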

How the data were processed

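RNA was measured on an Illumina bead array (MouseRef-8 per the labels' design text, MouseWG-8 per the methods). The authors deposited, for every probe, a bead-averaged intensity, which the header calls not normalized, and a p-value for detection on each array. The header names no background subtraction, yet intensities of undetected probes lie around 0, so none was subtracted. From these deposited values arrays were scaled to their mean with a robust zero-intercept line (rlm, MASS 7.3.60.0.1) over rank-invariant probes, a step that the methods name without detail. Scale factors were 0.839 to 1.35. Values under 1 were set to 1 before taking log2. The filter required detection (p-value under 0.05) on 2 or more arrays. The 4 group means were fitted over 8 arrays with lmFit and eBayes of limma 3.58.1 in R 4.3.3, for 5 contrasts, each with its own Benjamini-Hochberg adjustment over the 13868 probes. The submitters' processing notes name limma 3.14.4 and GenomeStudio.

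Groups came from the labels and every array and value column was used. For a probe undetected on both arrays of a group, the fold is a lower bound (at least N-fold), set against the lowest detected level of each array or the probe's own level there, whichever was higher. The members and gene lists were chosen with earlier results of these data known. Named genes were all members with every probe, up to 3 genes each way per comparison of the 2 pathway lists, the 2 genes most like each member, and Nos2. Within a list a gene is given by its brightest probe. Probe sequences are those of the deposited table, whose genome build is not given in the sources used here. Gene positions and promoters are those of RefSeq on GRCm38.p6. Deviations of same-numbered arrays from their group means correlated at -0.04 to 0.02 over 6 pairs of groups. That shows no large shared deviation but cannot tell whether same-numbered arrays were handled together. Alternatives tried were quantile normalization, neqc, a floor of 16, all probes without the filter, a detection p-value under 0.01, fits on 4 arrays, the replicate number as a block, an intensity trend, a 2-fold minimum and each array left out. The procedure was tested on simulated data. Some members of the lists are not reported here.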

Additional observations from a re-analysis of the deposited data

Results flagged for a closer look

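The response to stimulation differed between the genotypes, by the test of the difference itself in limma, for 11 member probes. Each value is the response of iNOS-/- cells minus that of WT cells in log2, with 2 arrays per group. It was 1.92 for Bcl2l11 probe 2360689, 1.48 for Bcl2l11 probe 1780735 and 0.93 for Bcl2l11 probe 5820168. It was 1.15 for Bcl2l1 probe 1240546, 0.99 for Mcl1 and 0.92 for Bcl2a1d. It was 0.59 for Bcl2l2 probe 4780653 and 0.50 for Bcl2l2 probe 5080338. It was -1.75 for Pmaip1 probe 5130367, -0.93 for Pmaip1 probe 4060136 and -0.90 for Bak1. Over all probes the same test called 42.1%. The Bcl2a1d value was 0.35 under both neqc and quantile normalization and was not called (adjusted p = 0.101 and 0.189). The Mcl1 value was 0.38 under both and was not called under quantile normalization (adjusted p = 0.0693). The 2 Bcl2l2 calls were each lost in 7 of the 8 fits with an array left out, all but iNOS-/- M1 replicate 1 for probe 5080338 and all but iNOS-/- M1 replicate 2 for probe 4780653. No group had enough arrays for a search for single outlying arrays.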

How the results depend on the processing

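Of 44 single calls, 317 of 341 values under settings other than a left-out array were still called in the same direction, 24 were no longer called and 0 reversed. With an array left out, 303 of 352 were still called in the same direction, 49 were not and 0 reversed. Values not called by limma were not part of these counts, and Mcl1 in iNOS-/- cells changed sign among them. With a minimum change of 2-fold, the calls among the 19 probes fell to 5 for WT M1 against WT CON, 6 for iNOS-/- M1 against iNOS-/- CON, 2 for the unstimulated genotypes, 3 for the M1 genotypes and 4 for the difference of the responses. With a floor of 16, calls between the M1 genotypes rose to 10. With each array left out, calls ranged from 8 to 9 for the WT response, 7 to 11 for the iNOS-/- response, 5 to 9 for the unstimulated genotypes, 3 to 7 for the M1 genotypes and 9 to 10 for the difference of the responses, with fewer arrays in each fit. With the replicate number as a block, the calls were 9, 11, 7, 5 and 9 in the same order. The block lost the calls of Bcl2l1 probe 4670463 between the M1 genotypes (adjusted p = 0.0728), Bcl2l2 probe 5080338 between the unstimulated genotypes (0.0604), and both Bcl2l2 probes for the difference of the responses (0.0818 and 0.0649). The cause was not tested. A chip or slide block was not run, since no chip names were in the values used here. Probes near background, such as Bid 2940039 and Bcl2l2 1980553, each detected on 3 arrays, cannot show changes of ordinary size: their standard errors were 1.29 and 1.26.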
